A study of Mus musculus with 16 samples.

Results

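The circadian clock genes described here were Arntl, Npas2, Cry1, Per1, Per2, Per3, Nr1d1, Nr1d2, Dbp and Ciart, 10 of the 47729 genes counted in RNA sequencing libraries of mouse liver cells. They were chosen by symbol, and each was found on 1 row of the count tables. The question was which clock state each library held and whether it followed the genotype label. The 16 libraries came from unchallenged livers of adult mice, with 2 libraries per label in each of 4 cell types: endothelial cells (ECs), hepatic stellate cells (HSCs, labelled SC), Kupffer cells (KCs) and hepatocytes (HCs). The knock-out (KO) label stands for mice with floxed alleles of Zeb2 (loxP sites around exon 7) and the tamoxifen-inducible Cdh5-CreERT2 driver, which is active in ECs, on an R26R eGFP reporter background. The wild-type (WT) label stands for littermates without Cre, and both received tamoxifen at 2 mg per day for 5 days, so that no group was free of tamoxifen. Per the methods of the study, males of 8 weeks were used unless stated otherwise, 2 weeks after tamoxifen. By design the deletion was directed at ECs, while HSCs, KCs and HCs under the KO label are neighbouring cells in which the driver is not meant to act. The time of day of collection is not given in the sources used here.

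The mammalian clock is a feedback loop. Arntl (BMAL1) pairs with Clock or Npas2 and switches on genes with an E-box, among them the Per and Cry genes, Nr1d1, Nr1d2, Dbp and Ciart, whose proteins feed back on the loop. Nr1d1 and Nr1d2 (REV-ERB alpha and beta) repress genes with a ROR element, such as Arntl, Npas2 and Cry1, so that in liver the levels of the repressed genes and those of Nr1d1 and Dbp peak at opposite times of the day. Dbp is a PAR bZIP factor that acts through the D-box. Feeding and glucocorticoids set the phase of liver cells, and Per1 also responds directly to glucocorticoids.

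The elements of this loop can be read in the promoters of some members, and 1 stretch is shown for each gene and kind of element found. RefSeq promoter windows on GRCm38.p6, from 250 bases before to 50 bases after a start site, matched 9 of the 10 genes with 11 windows. The search was for the E-box CACGTG, for the D-box as TTATGTAA or TTATGCAA, and for the ROR element, on both strands. The capitals mark the match. Ciart had 3 E-boxes (chr3:95882257-95882354, minus strand), Per3 had 2 D-boxes (chr4:151044806-151044880, minus strand), Per1 had 1 E-box (chr11:69098773-69098798, plus strand) and 1 D-box (chr11:69098915-69098942, plus strand), Cry1 had 1 E-box (chr10:85185099-85185124, minus strand) and Arntl had 1 ROR element after its start site (chr7:113207528-113207556, plus strand).
Ciart, E-boxes: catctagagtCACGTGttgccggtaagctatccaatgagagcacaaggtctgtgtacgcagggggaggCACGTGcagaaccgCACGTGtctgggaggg
Per3, D-boxes: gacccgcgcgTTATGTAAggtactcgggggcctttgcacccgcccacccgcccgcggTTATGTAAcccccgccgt
Per1, E-box: cacccaagtcCACGTGcagggatgtg
Per1, D-box: gggcctggcaTTATGCAAcccgcctccc
Cry1, E-box: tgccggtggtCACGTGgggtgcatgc
Arntl, ROR element: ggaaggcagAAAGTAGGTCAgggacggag

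Of all 32851 promoter windows of that length, 7.15% held an E-box, 1.66% a D-box and 0.384% a ROR element. The triple E-box of Ciart is rarer, since 0.0883% of the windows held 3 or more, and 0.0487% held 2 or more D-boxes as Per3 did. No match was found in the windows of Nr1d1, Nr1d2, Dbp and Npas2, which says only that these letters are not in these windows.

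Totals ranged from 12872706 to 15690506 reads on genes, so that 3 counts, the floor used here, correspond to 0.191 to 0.233 CPM, the unit of level used here, in which the reads of a gene are divided by all reads on genes of that library and multiplied by 1000000. Zeb2 was 106 and 106 CPM in the labelled WT EC libraries and 199 and 130 CPM in the labelled KO EC libraries. Counted over the whole gene, Zeb2 was thus not lower under the KO label, and the groups are therefore called by their labels throughout. Only the floxed exon is removed by Cre, so that counts over the whole gene need not fall and cannot decide whether the deletion took place. The paper reports efficient deletion of Zeb2 in ECs, also at the mRNA level. Each list of cell type markers was highest in its own libraries, with summed EC markers at 12927 CPM or more in ECs and at most 1123 CPM elsewhere, but summed hepatocyte markers reached 21969 CPM in an EC library (85359 CPM or more in HCs). Hepatocyte RNA was present in the other cells and differed with the label. The 857 hepatocyte-enriched genes stood at a median of 11.1% and 22.9% of their hepatocyte level in labelled WT ECs, and at 3.34% and 2.28% in labelled KO ECs. In HSCs this share was 3.91% and 7.94% under the WT label against 0.915% and 1.39% under the KO label, and in KCs 4.73% and 8.57% against 9.72% and 11.4%. These genes were picked as at least 8 times the labelled WT KC mean, which by itself holds down the share of the labelled WT KC libraries. In KCs the share is thus not an even measure of the labels. Summed hepatocyte markers, not chosen by that rule, were 5305 and 7714 CPM in labelled WT KCs and 8671 and 10323 CPM in labelled KO KCs. None of the 10 clock genes was hepatocyte-enriched, but carry-over can still add to a member. At the mean HC level of Nr1d1 the share corresponds to 39.1% and 32.9% of its level in labelled WT ECs, 6.38% and 2.65% in labelled KO ECs, 62.0% in HSC library 32 and 31.4% in KC library 31. That mean, 125 CPM, covers HC libraries from 15.2 to 301 CPM, and at a lower HC level these percentages are smaller. In such bulk libraries fewer cells of a type and less RNA per cell cannot be told apart. Libraries are named below by label and by the number in the label, and the sources do not say which libraries share a mouse.

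**Figure D1:**
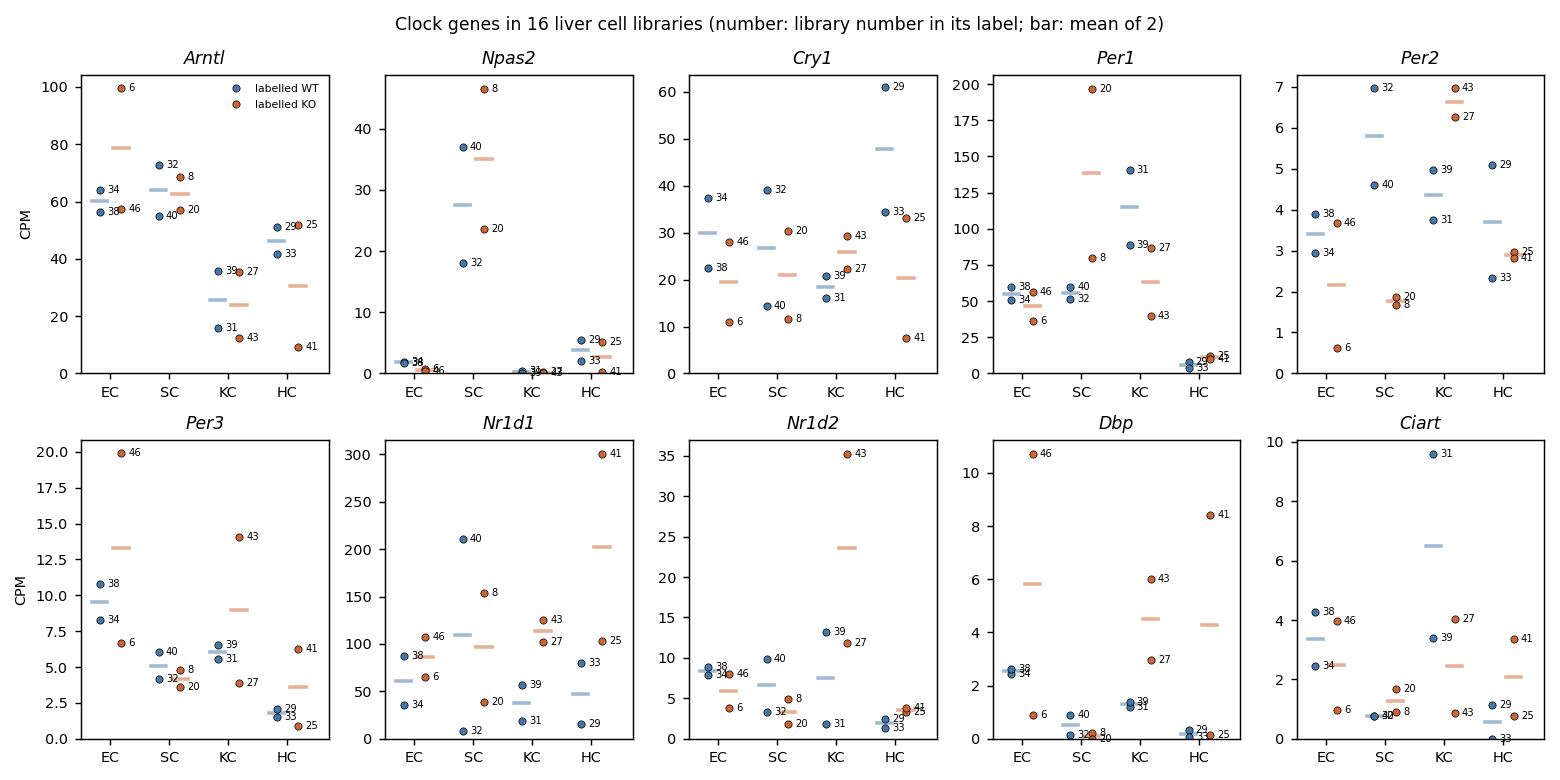
CPM of the 10 clock genes (vertical axes, linear and starting at 0) in ECs, HSCs (SC), KCs and HCs, with 1 point for each library, its number beside it, and a bar at the mean of the 2 libraries of a label. Dbp was highest in the libraries numbered 46 (10.7 CPM, ECs), 43 (6.02 CPM, KCs) and 41 (8.42 CPM, HCs), and Nr1d1 was lowest in the libraries numbered 34, 32, 31 and 29.

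Arntl (chr7:113207465-113314126), the activator of the loop, was high in ECs, where the labelled WT libraries held 63.9 and 56.2 CPM and the labelled KO libraries 99.8 and 57.3 CPM. HSCs had 72.7 and 55.1 CPM under the WT label and 68.4 and 57.1 CPM under the KO label, and these 4 values varied least of all cell types, by 1.32-fold. In KCs Arntl was 15.9 and 35.7 CPM under the WT label and 35.4 and 12.3 CPM under the KO label. The 2 labels therefore held 1 high and 1 low KC library each. HCs had 51.0 and 41.6 CPM under the WT label, and 51.6 and 9.17 CPM under the KO label. The labelled KO library numbered 41 was the low one, 5.63-fold under that numbered 25, while the other 3 HC libraries lay close together. In no cell type did the labels separate for Arntl.

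Npas2 (chr1:39193731-39363236), the partner that can stand in for Clock, was mainly a gene of HSCs. They held 18.1 and 37.0 CPM under the WT label and 46.5 and 23.7 CPM under the KO label. ECs had 1.88 and 1.71 CPM under the WT label and 0.766 and 0.417 CPM under the KO label, and it was the only one of the 10 members whose labels did not overlap in ECs. The hepatocyte share, at the mean HC level, corresponds to 19.1% and 43.3% of Npas2 in the labelled WT and 14.1% and 17.7% in the labelled KO EC libraries. With that part taken off, a step chosen after the values were seen, the labels stayed apart (1.52 and 0.969 against 0.658 and 0.343 CPM), but with the highest HC level they overlapped (1.27 and 0.441 against 0.581 and 0.291 CPM). KC libraries had between 0 and 0.335 CPM, and 2 of 4 were at or under the floor. In HCs Npas2 was 5.55 and 2.11 CPM under the WT label and 5.09 and 0.202 CPM under the KO label. The HC library numbered 41, low in Arntl, was thus also the one with Npas2 at or under 3 counts.

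Cry1 (chr10:85131700-85185064), a repressor of the loop that is itself repressed by REV-ERB, was 61.0 and 34.4 CPM in labelled WT HCs and 33.2 and 7.48 CPM in labelled KO HCs. The HC labels did not overlap, but the step between the labels was small beside that between the 2 labelled KO libraries, which differed by 4.44-fold. In ECs it was 37.3 and 22.5 CPM under the WT label and 10.9 and 28.0 CPM under the KO label. HSCs held 39.1 and 14.4 CPM under the WT label and 11.5 and 30.4 CPM under the KO label. In these 2 cell types the lowest values were those of the libraries numbered 6 and 8. KCs had 16.2 and 20.8 CPM under the WT label and 22.2 and 29.4 CPM under the KO label, the opposite order to HCs.

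Per1 (chr11:69095217-69109960), the period gene that answers most directly to hormones, was at its highest in the labelled KO HSC library numbered 20, with 197 CPM. The other HSC libraries held 51.5 and 59.4 CPM under the WT label and 79.6 CPM under the KO label. The same library had the highest levels among HSCs of the glucocorticoid targets Fkbp5 (54.6 CPM, others at most 21.9 CPM), Zbtb16 (49.9996 CPM, others at most 7.33 CPM) and Tsc22d3 (76.3 CPM, others at most 52.8 CPM), and their part in the Per1 level was not tested. By edgeR 0 of 4 glucocorticoid targets passed in HSCs, none had an unadjusted p under 0.05, and DESeq2 called 0. KCs had 140 and 88.9 CPM under the WT label and 86.6 and 40.0 CPM under the KO label. Beside this, the summed level of 7 immediate early genes in KCs was 13785 and 21775 CPM under the WT label and 6656 and 3195 CPM under the KO label, and its part in Per1 was not tested. By edgeR 0 of these 7 genes, Fos and Jun among them, passed in KCs, with 6 at an unadjusted p under 0.05, and DESeq2 called 4 as lower. The summed level of the 4 glucocorticoid targets in KCs was 929 and 1102 CPM under the WT label and 562 and 371 CPM under the KO label, with 0 passing by edgeR, Sgk1 and Tsc22d3 at an unadjusted p under 0.05 and Sgk1 called by DESeq2, and its part in Per1 was not tested. ECs held 50.8 and 59.4 CPM against 36.4 and 56.2 CPM. HCs were low throughout, with 7.71 and 3.68 CPM under the WT label and 12.4 and 9.77 CPM under the KO label.

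Per2 (chr1:91415982-91459324), the partner of Per1 in the repressor complex, was low in every library, between 0.627 and 6.98 CPM. HSCs had 6.98 and 4.61 CPM under the WT label and 1.66 and 1.87 CPM under the KO label, so that the labels did not overlap. In KCs the order was the other way, with 3.76 and 4.96 CPM under the WT label and 6.27 and 6.97 CPM under the KO label. In HCs and ECs the labels overlapped, and the lowest Per2 of all was that of EC library 6, at 0.627 CPM. Per3 (chr4:151003652-151044665), the period gene with the paired D-box, was highest in the libraries numbered 46 in ECs and 43 in KCs. It was 8.30 and 10.8 CPM in labelled WT ECs and 6.69 and 19.9 CPM in labelled KO ECs. KCs held 5.57 and 6.52 CPM under the WT label and 3.89 and 14.1 CPM under the KO label. In HCs it was 2.103 and 1.5001 CPM under the WT label and 0.903 and 6.27 CPM under the KO label, with library 41 as the high one. The 2 labelled KO libraries of each of these cell types enclosed both labelled WT libraries. HSCs varied by 1.67-fold, between 3.60 and 6.01 CPM.

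Nr1d1 (chr11:98767932-98775333), which encodes REV-ERB alpha, varied most within a cell type among the members that were above the floor in all 16 libraries. HSCs held 7.88 and 210 CPM under the same WT label, a 26.7-fold difference, and 154 and 38.4 CPM under the KO label. In HCs it was 15.2 and 80.3 CPM under the WT label and 103 and 301 CPM under the KO label. KCs had 18.8 and 57.0 CPM under the WT label and 103 and 125 CPM under the KO label, and ECs 35.5 and 86.9 CPM against 65.4 and 107 CPM. Labels overlapped in ECs and HSCs and did not in KCs and HCs, where the KO label was higher. In each cell type the lowest Nr1d1 was in a labelled WT library, numbered 34, 32, 31 and 29 in ECs, HSCs, KCs and HCs. An opposite-strand neighbour, Thra, shares 263 exon bases with Nr1d1 (8.55% of its exon length), and since the strand setting of the counting is not given in the sources used here, reads there cannot be told apart. Nr1d2 (chr14:18204054-18239127), which encodes REV-ERB beta, followed in KCs, where it was 1.88 and 13.2 CPM under the WT label and 11.8 and 35.3 CPM under the KO label. In ECs it lay between 7.88 and 8.86 CPM in 3 libraries and at 3.76 CPM in the labelled KO library numbered 6. HSCs had 3.33 and 9.85 CPM under the WT label and 4.91 and 1.80 CPM under the KO label. HCs were low, with 2.49 and 1.30 CPM under the WT label and 3.35 and 3.84 CPM under the KO label, and their labels did not overlap.

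Dbp (chr7:45705088-45710203), the output factor whose level swings most over a day in liver, was near the floor in most HC and HSC libraries. HCs had 0.319 and 0.068 CPM under the WT label and 0.129 and 8.42 CPM under the KO label, which made library 41 the only HC library with more than 5 CPM. ECs held 2.44 and 2.64 CPM under the WT label and 0.905 and 10.7 CPM under the KO label, an 11.8-fold difference within a label. KCs held 1.21 and 1.37 CPM under the WT label and 2.97 and 6.02 CPM under the KO label. In HSCs it was 0.128 and 0.896 CPM under the WT label and 0.207 and 0 CPM under the KO label, with 3 of 4 libraries at or under the floor. Sphk2 on the opposite strand shares 539 exon bases with Dbp (18.01% of its exon length), with the same limit as for Nr1d1. Ciart (chr3:95878503-95882251), a repressor of the BMAL1 complex and the member with 3 E-boxes, was 2.44 and 4.27 CPM in labelled WT ECs and 0.975 and 3.96 CPM in labelled KO ECs. In HCs it was 1.15 and 0 CPM under the WT label and 0.774 and 3.37 CPM under the KO label. In KCs it did not go with Dbp: its highest level, 9.59 CPM, was in library 31 and its lowest, 0.880 CPM, in library 43, which had the highest Dbp. HSCs held between 0.768 and 1.66 CPM.

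Each library was then given a clock index, the mean log2 CPM (prior count 2) of Nr1d1, Nr1d2, Dbp, Ciart and Per3 minus that of Arntl, Npas2 and Cry1. A high index means that the E-box and D-box genes stood high and the ROR element genes low on average. Single genes could differ: KC library 43, highest of the KCs in the index, had their lowest Ciart and highest Cry1. Without HC library 41, and centred on the cell type, the index had Pearson correlations of 0.82, 0.76, 0.72 and 0.70 with Dbp, Nr1d1, Per3 and Nr1d2. Those with Arntl (−0.43), Npas2 (−0.28) and Cry1 (−0.17) were weaker, and that with Ciart (−0.20) had the opposite sign to the other E-box and D-box genes. All of these genes enter the index, so that part of each correlation is built in. In ECs the index was −1.29 and −0.40 under the WT label and −1.12 and 0.65 under the KO label. HSCs had −4.26 and −2.24 against −2.98 and −3.90, and KCs −0.02 and 0.53 against 0.42 and 1.84. In these 3 cell types the labels overlapped. With the hepatocyte share subtracted the KC labels no longer did, at 0.12 and 0.72 under the WT label and 0.98 and 2.01 under the KO label, and Dbp minus Arntl alone, at −3.58 and −4.57 against −3.52 and −1.02, also left them apart. The share subtracted is the one that the choice of genes holds down in labelled WT KCs. HCs had −3.56 and −3.41 under the WT label and −3.08 and 2.04 under the KO label, so that the labels did not overlap. With Dbp minus Arntl alone the HC labels did overlap, at −6.82 and −7.68 under the WT label and −7.62 and −0.12 under the KO label. The label difference of the full index in HCs, KO minus WT, of 2.97 came mostly from library 41, and without it the difference was 0.41. It was 0.61 in ECs, −0.19 in HSCs and 0.88 in KCs, and leaving out 1 library moved it between −0.28 and 1.49 in ECs, between −1.20 and 0.82 in HSCs, and in KCs between 0.17 without library 43 and 1.58 without library 27. No p-value is given for the index, since it is a score over the members. Levels of the index differ between cell types also because Npas2 is high in HSCs, so that only the order within a cell type is read.

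**Figure D2:**
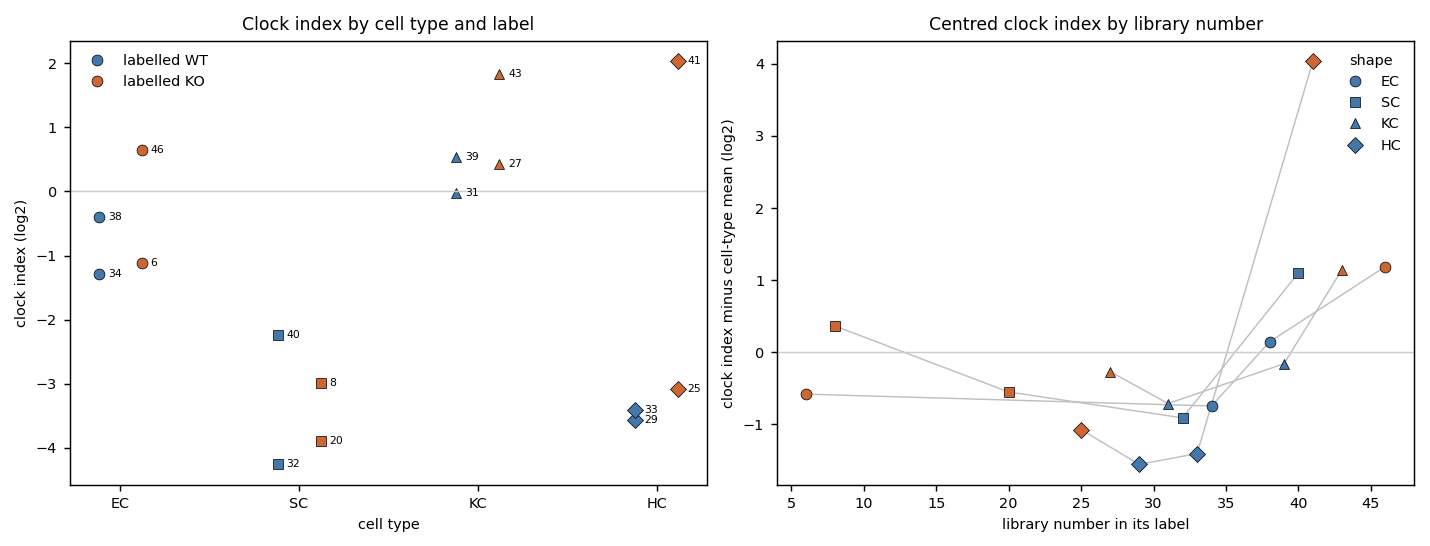
Left, clock index (log2, vertical axis) of each library by cell type and label, with the library number beside the point. Right, the index minus the mean of its 4 libraries against the library number, with lines joining the libraries of a cell type. The libraries numbered 41 to 46 lie between 1.15 and 4.04, and those numbered 29 to 34 between −1.56 and −0.71. The HC mean includes library 41, which puts the other HC points below it.

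Libraries with neighbouring numbers in their labels tended to share a high or a low index, a pattern seen after the values were known and given as a description. The meaning of the numbers is not stated in the labels. The numbers of 1 cell type lie multiples of 4 apart, and whether a run of 4 numbers is 1 liver was not tested. Relative to the mean of the cell type, the 5 libraries numbered 29 to 34, all labelled WT, had an index from −1.56 to −0.71. They included the library with the lowest index in each of the 4 cell types. The 3 libraries numbered 38 to 40, also labelled WT, lay between −0.16 and 1.10. The 3 numbered 41 to 46, labelled KO, lay between 1.15 and 4.04 and had the highest index of ECs, KCs and HCs. In HSCs, which have no library above 40, the highest index was that of library 40. The remaining labelled KO libraries, with lower numbers, did not stand with those numbered 41 to 46. Those numbered 20 to 27 lay between −1.08 and −0.27, and those numbered 6 and 8 at −0.58 and 0.36. The HC mean includes library 41 (index 2.04), which puts HC libraries 29, 33 and 25 (−3.56, −3.41 and −3.08) below it by arithmetic. Their centred values, −1.56, −1.41 and −1.08, set the low ends of these stretches. Outside HCs, libraries 34, 32 and 31 lay at −0.75, −0.91 and −0.71, and libraries 20 and 27 at −0.55 and −0.27. The bounds of these stretches were set by hand, and both changes of label, between 27 and 29 and between 40 and 41, fall on a bound. That no stretch held both labels follows from these bounds, and number and label cannot be told apart within a stretch. Whether the number goes with a day or an hour of collection was not tested.

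In 7 of the 8 groups the 2 libraries of a cell type and label differed more in these genes than in the median gene. The median size of the log2 ratio between the 2 libraries was 2.04 over the 10 clock genes in labelled KO HCs, against 0.35 over all 17214 genes tested. It was 1.07 against 0.38 in labelled WT HCs, 1.21 against 0.38 in labelled KO ECs and 1.31 against 0.51 in labelled KO KCs. The exception was labelled WT ECs, at 0.30 against 0.50. HSCs stood at 0.80 against 0.44 under the WT label and 1.14 against 0.48 under the KO label, and labelled WT KCs at 0.91 against 0.58. Over 16 other clock and clock output genes, listed below, the median lay between 0.22 and 0.52 in the 8 groups. The 17214 genes were kept by a filter over all 16 libraries, while the label comparison tested 11548 in HCs and 13867 in KCs. The median of all genes thus also covers genes with few reads in a cell type, whose ratios are shaped by the prior count. These spreads describe the libraries and carry no test.

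**Figure D3:**
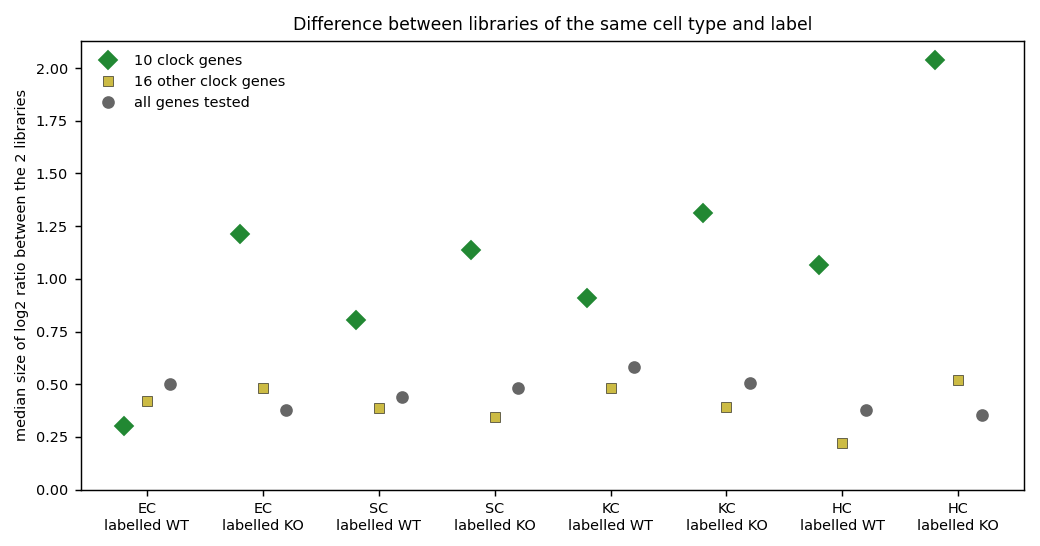
Median size of the log2 ratio between the 2 libraries of a group (vertical axis, log2) for the 10 clock genes (diamonds), 16 other clock genes (squares) and all 17214 genes tested (circles), by cell type and label. The diamonds lie above the circles in each group but labelled WT ECs, and highest in labelled KO HCs at 2.04.

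The labels were compared within each cell type with edgeR's quasi-likelihood test, with p-values adjusted by Benjamini-Hochberg over all genes tested and a threshold of 0.05. None of the clock genes passed. In ECs 0 of 10 passed, against 2.08% of all genes, and 0 had an unadjusted p under 0.05, as 15.0% of all genes did. In HSCs 0 of 9 tested passed (0% of all genes), and 2 had an unadjusted p under 0.05 (8.75% of all genes). Per1 stood 1.33 higher on the log2 scale under the KO label (SE 0.47, adjusted p = 0.513 by edgeR) and Per2 1.73 lower, with a log2 fold change of −1.73 (SE 0.61, adjusted p = 0.504). In KCs 0 of 9 passed (0% of all genes) and 1 had an unadjusted p under 0.05 (5.09% of all genes), Nr1d1 with a log2 fold change of 1.58 (SE 0.49, adjusted p = 0.933). In HCs 0 of 9 passed (0% of all genes) and 1 had an unadjusted p under 0.05 (7.11% of all genes), Per1 with 1.03 (SE 0.41, adjusted p = 0.7003). Nr1d1 had the largest label difference of the members in HCs, 2.14 (SE 0.89, adjusted p = 0.701). Dbp in HSCs and HCs and Npas2 in KCs did not pass the filter on low counts. DESeq2 also called 0 members in each of the 4 cell types, with 0, 2, 3 and 2 at an unadjusted p under 0.05 in ECs, HSCs, KCs and HCs.

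One library decided the HC comparison. Without the labelled KO library numbered 25, which left library 41 alone against both labelled WT libraries and assumes that a lone library varies like the others, 3 members passed: Dbp with a log2 fold change of 5.51, Arntl with −2.20 and Cry1 with −2.53, each at an adjusted p of 0.0148 by edgeR, against 0.448% of all genes in that fit. Without library 41 none of the members passed. The Dbp value rests on labelled WT libraries near the floor. In a fit over all 16 libraries with the cell type as a term, 0 of 10 members passed (0% of all genes), none had an unadjusted p under 0.05 by edgeR (6.40% of all genes) or DESeq2, and the log2 fold changes ran from −0.53 for Npas2 to 1.48 for Dbp (SE 1.05, adjusted p = 0.821). A label difference that itself differed between cell types was found by edgeR for 0 of 10 members, against 1.17% of all genes. The only one with an unadjusted p under 0.05 (10.6% of all genes) was Per1 (adjusted p = 0.369, and 0.0869 by DESeq2). The direction of its label difference is up in HSCs and HCs and down in KCs, with values that did not pass within a cell type.

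**Figure D4:**
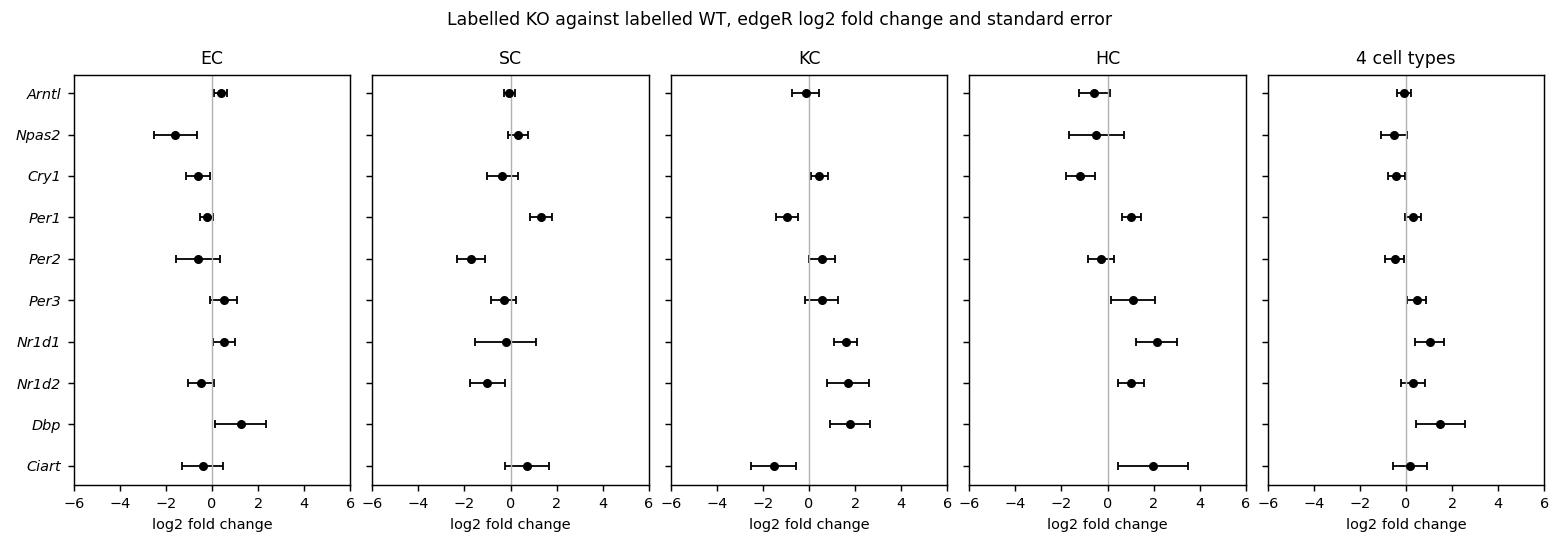
Log2 fold change of the labelled KO against the labelled WT libraries (horizontal axis, edgeR) with its standard error for each clock gene in ECs, HSCs (SC), KCs, HCs and over the 4 cell types; genes that did not pass the filter on low counts are left out. Values run from −1.73 for Per2 in HSCs to 2.14 for Nr1d1 in HCs, and none passed the threshold.

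Counts of members whose labels did not overlap are read against all genes in the same way. In ECs 1 of 10 did not overlap, against 44.9% of all genes. In HSCs 3 of 10 did not, against 37.5%, with Per1 and Ciart higher and Per2 lower under the KO label. KCs had 5 of 10, against 33.1%, with Cry1, Per2, Nr1d1 and Dbp higher and Per1 lower. HCs had 4 of 10, against 32.0%, with Per1, Nr1d1 and Nr1d2 higher and Cry1 lower. Per1 was thus on one side in HSCs and HCs and on the other in KCs, and Cry1 was on opposite sides in KCs and HCs.

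The cell type separated some members where the label did not. Per1 was lowest in HCs, with mean levels over 4 libraries of 8.39 ± 3.67 CPM in HCs, 50.7 ± 10.2 in ECs, 96.9 ± 67.7 in HSCs and 89.0 ± 41.0 in KCs (SD, n = 4). Npas2 was highest in HSCs, at 31.3 ± 12.9 CPM, followed by HCs at 3.24 ± 2.53, ECs at 1.19 ± 0.714 and KCs at 0.166 ± 0.159 (SD, n = 4). Arntl was 69.3 ± 20.6 CPM in ECs, 63.3 ± 8.59 in HSCs, 38.3 ± 20.0 in HCs and 24.8 ± 12.5 in KCs (SD, n = 4). In the order of levels, HSCs and KCs did not differ beyond their spread for Per1, nor did ECs and HSCs for Arntl. By edgeR Nr1d1 did not pass in any pair of cell types, with means from 73.7 to 125 CPM and ranges that overlapped, while DESeq2 called it higher in HCs than in ECs. Per3, Nr1d2 and Ciart did not pass by edgeR either. DESeq2 called Nr1d2 in HCs and in HSCs against KCs and Ciart in HSCs against KCs. The Per3 levels of ECs, at 6.69 CPM or more, lay above those of HSCs and HCs, at most 6.01 and 6.27 CPM.

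Over all genes the median log2 difference of HCs was −0.54 against ECs, −0.60 against HSCs and −0.24 against KCs, and that of ECs against KCs 0.13, and the fold changes below are to be read against this shift. Per1 was lower in HCs than in ECs (log2 fold change −1.32, SE 0.37, adjusted p = 0.00925 by edgeR), in HSCs (−2.36, SE 0.38, adjusted p = 0.000216) and in KCs (−2.40, SE 0.38, adjusted p = 0.000192). Npas2 was lower in ECs than in HSCs (−5.14, SE 0.87, adjusted p = 0.000979), and higher in HSCs than in KCs (7.40, SE 1.01, adjusted p = 0.000119) and in HCs than in KCs (5.21, SE 0.96, adjusted p = 0.000582), where KC libraries near or under the floor set the size. These 6 calls of 17 were kept in all fits without 1 library. Npas2 in HCs against ECs (2.95, adjusted p = 0.00795) was lost without the labelled KO HC library numbered 25, at 0.96 and an adjusted p of 0.328. Npas2 in HCs against HSCs (−2.19, adjusted p = 0.0252) was lost without labelled WT HSC library 40 or HC library 33, at adjusted p-values of 0.0509 and 0.0607. Arntl was higher in HCs than in KCs (1.65, adjusted p = 0.00843), a call lost without KC library 31 (adjusted p = 0.0751) or HC library 25 (0.197).

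The other calls were weaker. Cry1 was higher in HCs than in ECs (1.69, adjusted p = 0.0145 by edgeR), HSCs (1.48, adjusted p = 0.0274) and KCs (1.54, adjusted p = 0.0235), and without HC library 25 these were 0.82, 0.55 and 0.63, with adjusted p-values of 0.195, 0.386 and 0.337. They were also lost in 3, 11 and 7 other fits without 1 library, EC library 38 included each time. Per2 was higher in HCs than in ECs (1.61, adjusted p = 0.0206) and lost in 6 of the 16 fits without 1 library, all of them an EC or HC library, with the highest adjusted p of 0.1304 without HC library 29. Arntl in HSCs against KCs (1.30, adjusted p = 0.0348) was lost in 5, with 0.118 without KC library 31, and Per1 in ECs against KCs (−1.08, adjusted p = 0.0389) in 5, with 0.125 without KC library 27. Dbp was higher in ECs than in HSCs (3.78, adjusted p = 0.0440) and lower in HSCs than in KCs (−3.40, adjusted p = 0.0447), lost in 13 and 11 of the 16, with 0.228 without EC library 46 and 0.128 without HSC library 32.

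By edgeR the share of members called in either direction was below that of all genes in each pair of cell types. It was 4 of 10 in HCs against ECs, where 58.7% of all genes passed, 3 of 10 in HCs against HSCs (58.4%) and 4 of 10 in HCs against KCs (55.6%). In ECs against HSCs 2 of 10 passed (26.0%), in ECs against KCs 1 of 10 (32.0%) and in HSCs against KCs 3 of 10 (42.9%). This order depended on the setting, since DESeq2 called 5 of 10 in HSCs against KCs (46.5% of all genes), and with no filter on low counts edgeR called 4 of 10 or more, against 17.8% to 35.2% of all genes, in each pair but ECs against KCs (3 of 10, 20.2%). Per length of exon, the order of the members was led by Nr1d1 in all 4 cell types, with mean levels of 40.6 CPM per kb in HCs, 33.4 in HSCs, 24.6 in KCs and 24.0 in ECs. In HCs Cry1 followed with 10.2 and Arntl with 5.10 CPM per kb, while in HSCs and KCs Per1 was second with 17.2 and 15.8 CPM per kb. Dbp was at 1.39 CPM per kb in ECs and 0.103 in HSCs.

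Among 16 other genes of the clock and its output (Clock, Cry2, Rora, Nfil3, Bhlhe40, Bhlhe41, Tef, Hlf, Cipc, Csnk1d, Csnk1e, Usp2, Wee1, Nampt, Noct and Por), edgeR called 0 in any label comparison, with 15 tested in HSCs and 16 elsewhere. At an unadjusted p under 0.05 there were 2 in ECs (Nfil3 and Rora), 0 in HSCs, 3 in KCs (Bhlhe40, Noct and Rora) and 0 in HCs. Of all genes 15.0%, 8.75%, 5.09% and 7.11% reached that level in these cell types. Within a cell type DESeq2 called 1, Bhlhe40 in KCs. For a label difference that differs between cell types edgeR called 0, with Bhlhe40 and Rora at an unadjusted p under 0.05 (adjusted p = 0.243 and 0.0513), and DESeq2 called both (adjusted p = 0.0183 and 4.17e-07). Over the 4 cell types the label differences that were largest among the 16 were those of Cry2 (−0.44, adjusted p = 0.769 by edgeR), a repressor and the only one with an unadjusted p under 0.05, Hlf (−0.43, adjusted p = 0.892), a PAR bZIP factor like Dbp, Cipc (−0.28, adjusted p = 0.903), an inhibitor of Clock, and Usp2 (−0.27, adjusted p = 0.939), a deubiquitinase. The median over the 16 was −0.13, against −0.03 over all genes. Within cell types the medians did not share a direction. In ECs the median was −0.81, with 14 of 16 lower under the KO label (−0.01 over all genes). In KCs it was 0.55, with 13 of 16 higher (−0.02 over all genes). HSCs stood at −0.20, with 9 of 15 lower, and HCs at −0.10, with 10 of 16 lower (0.02 and −0.02 over all genes). These medians carry no test.

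These 16 genes are not in the index. HC library 41 was the highest of the 4 HC libraries in 3 of them and the lowest in 6, and KC library 43 the highest of the KCs in 10 and the lowest in 2. Clock, Por and Bhlhe41, named here after their values were seen, stood at the same end in both. So did Bhlhe40, highest at 379 CPM in HC library 41 and 729 CPM in KC library 43. Cry2 and Cipc stood at opposite ends. They were lowest of the HCs in library 41 (29.8 and 7.95 CPM) and highest of the KCs in library 43 (10.3 and 24.6 CPM). Clock, the partner of Arntl, was 2.02 CPM in HC library 41 against 7.14, 8.59 and 7.74 CPM in the other HC libraries, and lowest of the KCs, at 10.6 CPM, in library 43. Por, which supplies electrons to cytochrome P450 enzymes, was 497 CPM in HC library 41 against at most 364 CPM in the others, and 347 CPM in KC library 43 against at most 275 CPM. Bhlhe41, an E-box repressor, was 7.82 CPM in HC library 41 against at most 2.49 CPM, and 11.0 CPM in KC library 43 against at most 6.85 CPM. Tef and Hlf, PAR bZIP factors like Dbp, did not stand out in HC library 41, at 10.2 and 9.50 CPM against 11.4 and 12.6 CPM in library 29. Over the 16 libraries the correlation of Clock with the index was −0.76, and −0.15 without HC library 41. In EC library 46 Por was also the highest of the 4, at 142 CPM against at most 129 CPM, but Bhlhe41 and Clock did not stand out in the same way. Bhlhe41 was 0.626 CPM, the lowest of the 4, and Clock 26.3 CPM beside 25.9 CPM in library 34.

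Genes were also ranked by how closely their level followed the index over the 16 libraries, each centred on its cell type. The ranking held 10750 genes outside the member list, kept by their mean level over all 16 libraries. A gene could thus be kept for its level in other cell types while near the floor in HCs. The highest Pearson correlations were those of Wdr45b (0.92), A630033H20Rik (0.84), Git1 (0.83), Gm15675 (0.82), Foxk2 (0.81), Bmp4 (0.81), Fkbp10 (0.81) and Slc22a17 (0.81), and the lowest those of Helz (−0.90), Cers4 (−0.90), Cnksr3 (−0.88), Apc (−0.88), Twf2 (−0.88), L3mbtl3 (−0.88), Trappc8 (−0.87) and Gys1 (−0.86). They rest in large part on HC library 41, and for some on HC levels near the floor. In HC libraries 29, 33 and 25, A630033H20Rik, Gm15675, Fkbp10 and Slc22a17 had 0 CPM. In HC library 41 they had 0.741, 0.472, 0.607 and 0.674 CPM, and Cers4 and Twf2 had 0 CPM there. Without HC library 41 the correlation of Wdr45b was 0.67 and that of Helz −0.59, and those of the other 14 lay between 0.24 and 0.61 in size. The points share libraries and, where cell types come from 1 liver, mice, so that these are descriptions without a p-value.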

How the data were processed

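RNA from 4 sorted or separated liver cell types was sequenced, with 2 libraries per cell type and label. For every library there is 1 table of counts, the reads that HTSeq assigned to each Ensembl gene, which the authors deposited without scaling. The submitters' processing notes name Trimmomatic 0.32, HISAT2 2.1.0, HTSeq 0.9.1, edgeR and GRCm38, while the annotation release and the strand setting are not given in the sources used here. The labels name both Smart-seq2 and a stranded mRNA kit for library preparation, which was not resolved. The 5 summary lines of each table, which hold 42.5% to 57.5% of its reads (ambiguous reads 2.88% to 4.91%), were left out of totals. GENCODE M21 held 98.9% of the identifiers. Gene coordinates are from that annotation on GRCm38, and promoter sequences from RefSeq on GRCm38.p6.

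Counts were tested with edgeR 4.0.16 in R 4.3.3 (filterByExpr by group, TMM normalization, quasi-likelihood test), with an adjusted p-value under 0.05 as the threshold over all genes tested. Labels were compared within a cell type, over the 4 cell types with the cell type as a term, and as an interaction, and cell types were compared over 8 group means. These fits treat the 16 libraries as independent. Nothing in the labels says which libraries came from separate mice, so that p-values measure the spread between these libraries, which may in part be technical. The scripts were tested on simulated counts. The floor covers counting error only, while the standard errors come from the edgeR fits and take in the spread between libraries. All 10 members are named, other clock genes by their counts, by passing a label comparison or by the 4 largest label differences over the cell types, and the 8 genes at either end of the likeness ranking. Some genes of the list of other clock genes are not reported here, and its counts and medians are over the rest. The members and lists were chosen with earlier results of these data known. The settings varied were the tool (DESeq2 1.42.0), the scaling (RLE), the filter (none, or a minimum of 10 counts in each library), the samples of the fit (all 16), leaving out hepatocyte-enriched genes (at least 10 CPM in labelled WT HCs and at least 8 times the labelled WT KC mean), other forms of the index, the fit over cell types without hepatocytes, and leaving out each library.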

Additional observations from a re-analysis of the deposited data

Results flagged for a closer look

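Values in the 4 libraries of a cell type were examined for 1 library that stood apart from the other 3, in 44 sets (the 10 members and the clock index in each cell type, on the log2 scale), and 4 were found. Chance gives about 1 in 20 such sets. In ECs both came from the labelled KO library numbered 6, with Per2 at 0.627 CPM, against 2.93 to 3.88 CPM in the others, and Nr1d2 at 3.76 CPM, against 7.88 to 8.86 CPM. In HCs both came from the labelled KO library numbered 41, with Arntl at 9.17 CPM, against 41.6 to 51.6 CPM, and the clock index at 2.04, against −3.56 to −3.08. EC library 6 was also the lowest of the 4 EC libraries in 7 of the 10 members, and HC library 41 the highest of the 4 HC libraries in 5 and the lowest in 3.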

How the results depend on the processing

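The label comparisons were the same under RLE size factors, DESeq2, at least 10 counts in every library and without hepatocyte-enriched genes, with 0 members called. With no filter on low counts edgeR called 1 member in HSCs (Per1, against 2.70% of all genes), 1 in KCs (Nr1d1, 0.704%), 3 in HCs (Cry1, Dbp and Nr1d1, 1.14%, with Nr1d1 at an adjusted p of 5.66e-11), 1 over the 4 cell types (Nr1d1, 2.43%) and 3 for the difference between cell types (Dbp, Nr1d1 and Per1, 6.02%), and the cause was not tested. Leaving out 1 library gave 0 to 3 members in HCs and 0 in ECs, HSCs and KCs and over the cell types. Between cell types no filter gave 5 members for HCs against HSCs, 4 for ECs against HSCs, 3 for ECs against KCs and 5 for HSCs against KCs. DESeq2 gave 5, 3 and 5 for HCs against HSCs, ECs against KCs and HSCs against KCs. At least 10 counts in every library, where fewer genes are tested, gave 2 for HCs against ECs, 1 for ECs against HSCs and 2 for ECs against KCs. Without 1 library the counts ran from 1 to 5 for HCs against ECs, 1 to 3 for HCs against HSCs, 2 to 5 for HCs against KCs, 1 to 2 for ECs against HSCs, 0 to 3 for ECs against KCs and 1 to 4 for HSCs against KCs. Of the log2 fold changes named, 1 changed sign: Dbp in ECs ran from −1.53, without the labelled KO library numbered 46, to 2.14. The index taken as Dbp minus Arntl alone gave a label difference of 1.81 in KCs, and other forms of it moved no difference by more than the spread between libraries. No paired analysis was possible because the label groups of a cell type share no library numbers. Runs of neighbouring numbers over cell types may mark 1 liver, which the labels do not state, and the fits over cell types take no account of it. With 2 libraries per label and coefficients of variation between 36.8% and 51.0%, small label differences in these genes could not be seen, and most libraries lay near the floor of 3 counts for Dbp in HSCs and HCs and for Npas2 in KCs.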
